A study of Homo sapiens with 3 samples.

Results

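The genes described here are 7 of the 36601 genes in the count tables, chosen by symbol as targets and feedback inhibitors of fibroblast growth factor (FGF) signalling: DUSP6, SPRY1, SPRY2, SPRY4, SPRED1, ETV4 and ETV5. Each symbol was found once, and all 7 genes passed the minimum level used below on every day. The cells came from UCLA1, a line of human embryonic stem cells, and were taken on days 1, 2 and 3 of the protocol named GiMO in the labels. In it the cells are covered with Geltrex, an extract of basement membrane. There was 1 library per day, made on the droplet platform of 10x Genomics, and the labels give no treatment that separates the days. The series title concerns a response to BMP4, and the time or fact of its addition is missing from the labels used here. Because each day rests on a single library, differences between days have no check by replicates and no p-values. Day and library cannot be told apart.

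FGF ligands bind receptor tyrosine kinases at the cell surface, which pass the signal through RAS, RAF and MEK to the kinase ERK. ERK activity raises the transcription of several genes whose products act back on the pathway, so these transcripts are widely used as a readout of FGF signalling. Sprouty proteins (SPRY1, SPRY2, SPRY4) and SPRED1 act on the RAS and RAF steps, DUSP6 is a phosphatase that removes the activating phosphates from ERK in the cytoplasm, and ETV4 and ETV5 are ETS-family transcription factors of the PEA3 group. In the mouse gastrula, FGF4 and FGF8 are made in the primitive streak and are needed for mesoderm cells to leave it.

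After filtering, 3533, 7224 and 6804 cells were kept on days 1, 2 and 3, with medians of 41595, 15642 and 19227 UMIs per cell. UMIs are molecular identifiers that count captured RNA molecules. Levels are CPM, the UMIs of a gene summed over cells and scaled to the same total of UMIs in every library, with 95% Poisson intervals, and ratios have 95% conditional binomial intervals; both are exact and cover counting error only. For shares of cells and for classes of cells, each cell was thinned to 5000 UMIs, which left 3499, 6742 and 6675 cells. The libraries shared only 5 to 10 barcodes per pair. POU5F1, a pluripotency factor, stood at 1172, 1034 and 397 CPM on days 1, 2 and 3, and MESP1, a factor of nascent mesoderm, at 0.633, 77.6 and 317 CPM, so the line carried its labelled pluripotent markers at the start and mesoderm markers at the end. In such sums, fewer cells with a transcript and less RNA per cell cannot be told apart.

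The 7 genes lie on 7 different chromosomes. In GENCODE release 44 on hg38, DUSP6 (ENSG00000139318) lies on the minus strand at chr12:89347235-89352501, SPRY1 (ENSG00000164056) on the plus strand at chr4:123396795-123403760, and SPRY2 (ENSG00000136158) on the minus strand at chr13:80335976-80341126. SPRY4 (ENSG00000187678) lies on the minus strand at chr5:142310427-142326455 and SPRED1 (ENSG00000166068) on the plus strand at chr15:38252836-38357249. ETV4 (ENSG00000175832) is on the minus strand at chr17:43527844-43579620 and ETV5 (ENSG00000244405) on the minus strand at chr3:186046314-186110318. RefSeq promoter entries of GRCh38.p14 were matched for DUSP6, SPRY1, SPRY2, SPRY4 and SPRED1.

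The 250 bases upstream of the first annotated start are shown for DUSP6, SPRY1 and SPRY2, because these were the 3 members that stood lower together in cells with FGF ligand UMIs on day 3. The windows are chr12:89352502-89352751 on the minus strand, chr4:123396545-123396794 on the plus strand and chr13:80341127-80341376 on the minus strand, each written 5′ to 3′ toward the start. Capitals mark GGAAG, the core of the site of ETS factors, on either strand (CTTCC on the other).
DUSP6: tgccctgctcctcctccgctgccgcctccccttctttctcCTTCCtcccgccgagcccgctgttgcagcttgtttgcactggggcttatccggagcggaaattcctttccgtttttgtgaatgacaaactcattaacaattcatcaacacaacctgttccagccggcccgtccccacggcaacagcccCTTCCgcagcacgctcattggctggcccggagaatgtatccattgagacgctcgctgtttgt
SPRY1: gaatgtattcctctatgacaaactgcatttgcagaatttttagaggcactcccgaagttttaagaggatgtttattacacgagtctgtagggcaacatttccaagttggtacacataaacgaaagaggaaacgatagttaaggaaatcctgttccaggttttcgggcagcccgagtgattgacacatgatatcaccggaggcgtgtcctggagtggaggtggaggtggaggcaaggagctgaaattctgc
SPRY2: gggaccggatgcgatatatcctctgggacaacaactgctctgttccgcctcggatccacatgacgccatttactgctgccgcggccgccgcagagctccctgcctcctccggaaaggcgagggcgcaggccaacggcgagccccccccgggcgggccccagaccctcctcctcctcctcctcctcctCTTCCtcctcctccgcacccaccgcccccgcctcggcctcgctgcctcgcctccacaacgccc
The DUSP6 window held 2 matches, of which 1 extended to CGGAAG, a longer form that contains the core. The SPRY2 window held 1 match and the SPRY1 window held 0. RefSeq lists further starts, which are not shown: the window of a second SPRY1 start held 3 matches, of which 1 was CGGAAG, and those of the 2 further SPRY2 starts held 3 and 1. GGAAG occurred in 65.1% of 35116 upstream windows of the same length and CGGAAG in 16.5%, so a match in a single window is common. The DUSP6 window also overlaps an exon of the neighbouring gene ENSG00000274021.

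The first question was how the feedback genes moved over the 3 days. The 3 sprouty genes, SPRED1 and DUSP6 were highest on day 3, ETV4 was lowest on day 3, and ETV5 was nearly level. DUSP6 and SPRY1 were lower on day 2 than on either side of it. Levels by day are plotted for each gene, and a gene was counted as apart between 2 days when its ratio reached 1.5 in either direction with at least 10 CPM on the higher day.

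**Figure D1:**
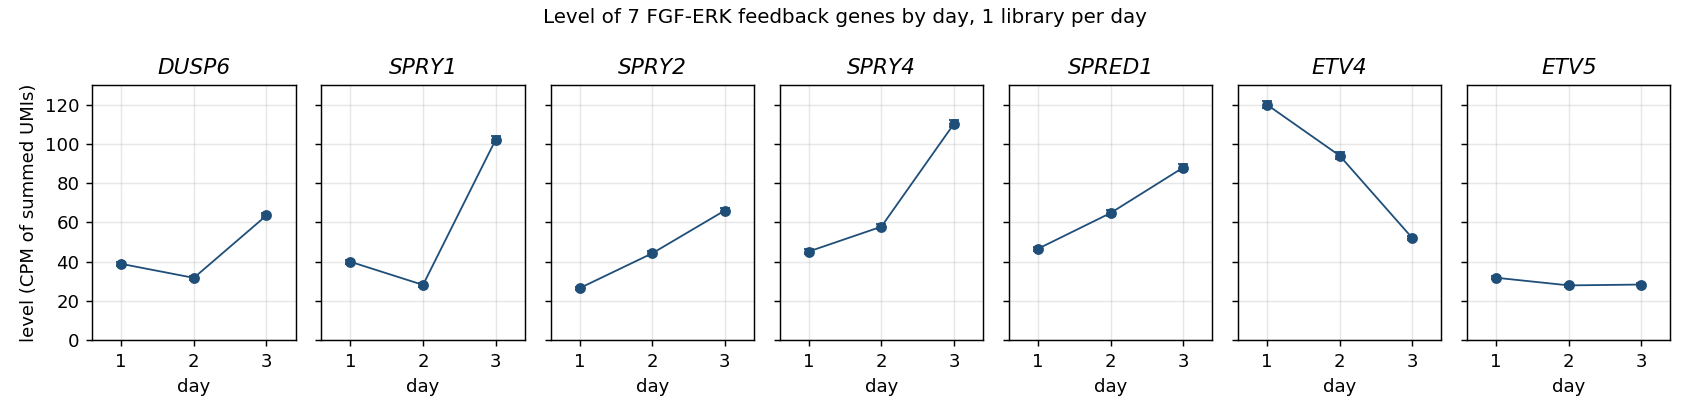
Level of each of the 7 genes (CPM of summed UMIs, vertical axis, linear from 0) on days 1, 2 and 3 (horizontal axis), 1 library per day; bars are 95% Poisson intervals. SPRY1 and SPRY4 reach 102 and 110.2 CPM on day 3, whereas ETV4 steps down to 52.0 CPM.

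SPRY1, a membrane-anchored sprouty, stood at 40.0, 28.2 and 102 CPM on days 1, 2 and 3. The ratio of day 3 over day 2 was 3.62 (3.49 to 3.76) and that of day 3 over day 1 was 2.55 (2.48 to 2.63). It had the widest swing of the 7 genes between days 2 and 3. The share of cells with a SPRY1 UMI after thinning was 17.5% (16.3 to 18.8), 12.2% (11.4 to 13.01) and 33.4% (32.3 to 34.6), against 69.8%, 31.4% and 62.6% before thinning, where the deeper day 1 library stands above the others. Shares have exact Clopper-Pearson 95% intervals.

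SPRY2, which binds the adaptor GRB2 and the ubiquitin ligase CBL, stood higher at each step, with 26.5, 44.2 and 66.0 CPM on days 1, 2 and 3. It was the only member past 1.5-fold on day 2 over day 1, at 1.67 (1.60 to 1.74), and its day 3 over day 1 ratio was 2.49 (2.40 to 2.58). SPRY4 stood at 45.2, 57.8 and 110.2 CPM, with a ratio of 1.91 (1.85 to 1.96) for day 3 over day 2. Thinned cells with a SPRY4 UMI made up 18.8% (17.5 to 20.1), 25.02% (24.0 to 26.1) and 39.0% (37.8 to 40.2) of cells on days 1, 2 and 3. SPRED1, which brings neurofibromin (NF1) to the membrane where it switches RAS off, stood at 46.6, 64.8 and 87.9 CPM. By total UMIs all 3 of these genes were therefore higher at each step, SPRED1 by ratios of 1.39 and 1.36. With TMM scaling the ratios of day 2 over day 1 were 1.33 for SPRY2, 1.02 for SPRY4 and 1.11 for SPRED1, so the first step of SPRY4 depended on the scaling.

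DUSP6, the ERK phosphatase, stood at 38.9, 31.8 and 63.5 CPM on days 1, 2 and 3. The ratio of day 2 over day 1 was 0.816 (0.784 to 0.850), and that of day 3 over day 2 was 2.00 (1.93 to 2.08). Its day 3 level exceeded day 1 by a ratio of 1.63 (1.58 to 1.69), which was 1.32 when the libraries were scaled by TMM and then missed the fold of 1.5. Its levels on days 1 and 2 were within the fold of each other.

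The 2 PEA3 factors parted from the inhibitors and from each other. ETV4 stood at 119.9, 94.0 and 52.0 CPM on days 1, 2 and 3, so that it was 1.81-fold lower (1.75 to 1.86) on day 3 than on day 2 and 2.30-fold lower (2.24 to 2.37) than on day 1. Thinned cells with an ETV4 UMI made up 44.2% (42.5 to 45.8), 35.9% (34.8 to 37.1) and 22.9% (21.9 to 23.9) of cells. ETV5 stood at 31.8, 27.9 and 28.4 CPM, and its ratio of day 3 over day 2 was 1.02 (0.969 to 1.06). Of the 7 genes, ETV4 alone was lower on day 3 than on day 2 by the fold used.

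Between day 2 and day 1, 1 of the 7 members was past 1.5-fold and higher (SPRY2) and 0 were lower, beside 22.8% of 9723 genes in either direction. Scaling moves this comparison: with TMM factors the all-gene log2 ratio shifts by -0.33, and the members split 0 higher and 3 lower (DUSP6 0.652, SPRY1 0.563, ETV4 0.626), while the split over all genes turns to 5.68% higher and 17.3% lower, against 17.5% and 5.3% without it. Between day 3 and day 2, 3 members were higher (DUSP6, SPRY1, SPRY4) and 1 lower (ETV4), beside 24.5% of 10150 genes in either direction, 12.3% higher and 12.2% lower. SPRY2 lay at the fold, with a ratio of 1.49 (1.44 to 1.54), and at 1.51 with TMM. With TMM the members therefore split 4 higher and 1 lower, and all genes 12.8% and 11.5%. Between day 3 and day 1, 5 members were higher and 1 lower, beside 46.1% of 10102 genes in either direction, with 31% higher and 15.1% lower; with TMM the members split 4 and 1, and all genes 17.7% and 25.7%. The median log2 ratio of the members was -0.19, 0.58 and 0.92 for day 2 over day 1, day 3 over day 2 and day 3 over day 1, beside 0.22, 0.05 and 0.27 for all genes tested.

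The next question was whether the members followed the ligands. FGF4 stood at 1.15, 18.3 and 4.74 CPM on days 1, 2 and 3 and FGF8 at 4.08, 14.2 and 2.79 CPM, so both peaked on day 2. FGF17, a close relative of FGF8, stood at 0.0422, 8.94 and 17.6 CPM and was highest on day 3. FGF2, which is also a component of most media for human pluripotent cells, stood at 122, 112 and 47.6 CPM as a transcript. Among receptors, FGFR1 stood at 201, 189.7 and 232 CPM. On day 2, when FGF4 and FGF8 peaked, DUSP6 and SPRY1 had their lowest levels and SPRY2, SPRY4 and SPRED1 stood between their levels of days 1 and 3. FGF17 had its highest level on day 3 together with these inhibitors.

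Cells were then divided within each library by the ligands. A cell with at least 1 UMI of FGF4, FGF8 or FGF17 after thinning is called FGF-positive, and a cell with 0 is called FGF-negative. There were 88 positive of 3499 cells on day 1 (2.51%, 2.02 to 3.09), 1105 of 6742 on day 2 (16.4%, 15.5 to 17.3) and 602 of 6675 on day 3 (9.02%, 8.34 to 9.73). Both classes were read at the same 5000 UMIs per cell, and their median depths before thinning were close, at 16608 UMIs in positive and 16037 UMIs in negative cells on day 2 and 19718.5 UMIs and 19375 UMIs on day 3. At this depth many cells that make a ligand carry 0 UMIs of it, so the negative class also holds such cells. Free RNA in the droplets can give a UMI to a cell without the transcript: on day 2, 12.5% of cells with a MESP1 UMI carried FGF17, against 0.595% of cells with SOX2 and no streak or MESP1 UMI. For FGF4 the shares were 12.4% and 0.850%, but for FGF8 they were alike, 3.99% and 4.33%, with 9.62% in cells with a TBXT or MIXL1 and no MESP1 UMI, so a background for FGF8 could not be set. A gene was counted as apart between these classes when the higher level was at least 25% above the lower and at least 10 CPM.

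No member was higher by this rule in FGF-positive cells on any day, and DUSP6 was lower on each. On day 2, DUSP6 stood at 20.5 CPM in FGF-positive cells and 33.2 CPM in FGF-negative cells, a ratio of 0.617 (0.503 to 0.750). On day 3 it stood at 36.5 CPM in FGF-positive cells and 68.2 CPM in FGF-negative cells, a ratio of 0.536 (0.438 to 0.649). The ERK phosphatase transcript was therefore lower, on both days, in the cells in which a ligand transcript was caught. The day 1 ratio of 0.528 (0.227 to 1.05) rests on 8 DUSP6 UMIs in positive cells, its interval includes 1, and a second random thinning gave 1.09.

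SPRY1 was the other member that was lower on days 2 and 3. It stood at 21.9 CPM in FGF-positive cells and 28.8 CPM in FGF-negative cells on day 2, a ratio of 0.761 (0.623 to 0.922). On day 3 it stood at 61.8 CPM in FGF-positive cells and 105 CPM in FGF-negative cells, a ratio of 0.587 (0.504 to 0.681). SPRY2 joined them on day 3, with 48.5 CPM in FGF-positive cells and 66.8 CPM in FGF-negative cells, a ratio of 0.726 (0.609 to 0.859). On day 2 its ratio was 1.01 (0.875 to 1.16), so for SPRY2 only the day 3 library showed a lower level.

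The remaining members stayed within this bound. SPRY4 had ratios of 0.927 (0.819 to 1.05) on day 2 and 0.847 (0.747 to 0.957) on day 3, and SPRED1 had 0.861 (0.765 to 0.968) and 0.833 (0.724 to 0.955). For both inhibitors the day 3 interval lies below 1 while the size stays under the bound used. ETV4 had ratios of 1.01 (0.916 to 1.11) and 1.06 (0.897 to 1.24), and ETV5 had 0.982 (0.818 to 1.17) and 0.893 (0.699 to 1.13), so the intervals of both PEA3 factors include 1 and, for ETV4, bound a decrease to 0.897 at most on day 3.

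**Figure D2:**
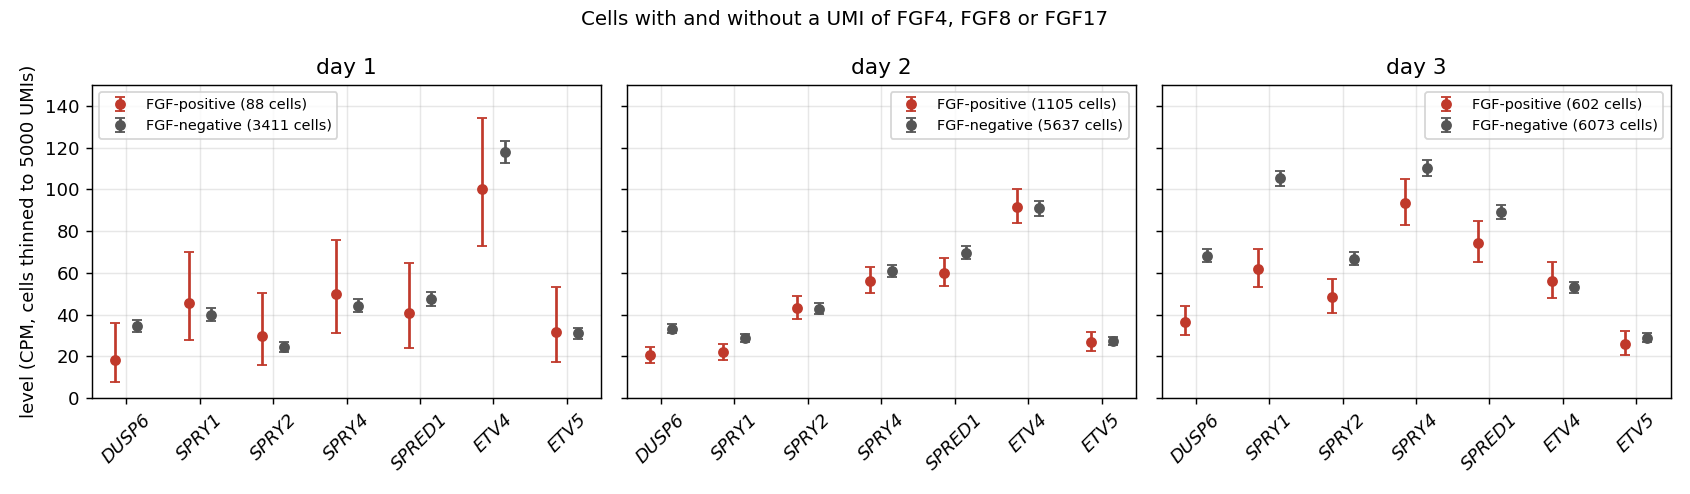
Level of each gene (CPM, cells thinned to 5000 UMIs, linear axis from 0) in FGF-positive cells (red, left of each pair) and FGF-negative cells (grey, right) on days 1, 2 and 3; bars are 95% Poisson intervals. On day 3 DUSP6 stands at 36.5 and 68.2 CPM and SPRY1 at 61.8 and 105 CPM in positive and negative cells, while ETV4 intervals overlap on all 3 days.

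In counts, 1, 2 and 3 members were lower by this rule on days 1, 2 and 3 and 0 were higher. Of all genes tested, 40.5%, 12.6% and 21.7% were apart in either direction on days 1, 2 and 3, with 21.1%, 8.17% and 10.9% lower and 19.4%, 4.4% and 10.8% higher. Day 1 had only 88 positive cells. Limited to cells with a TBXT or MIXL1 UMI, 0 members were apart on day 2, beside 7.89% of all genes. The median log2 ratio over the 7 members was 0.04, -0.11 and -0.26, beside -0.01, -0.01 and 0.01 over all genes tested.

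FGF-positive cells also differed from negative cells in cell state, so markers are given beside these ratios. On day 2, 6 of 7 tested primitive streak markers, 6 of 7 of nascent mesoderm and 3 of 3 of definitive endoderm were higher by the same rule in FGF-positive cells. MESP2 and SOX17 passed the minimum level through the positive cells only, so their direction was set by it. Without them, 5 of 6 markers of nascent mesoderm and 2 of 2 of definitive endoderm were higher. MIXL1 stood at 679.6 CPM in positive and 294 CPM in negative cells, CER1 at 139 and 34.8 CPM. Of 8 tested pluripotency genes on day 2, 0 were higher and 2 lower, UTF1 and SOX2, the second at 35.3 CPM in positive and 82.2 CPM in negative cells. On day 3, TBXT stood at 114 CPM in FGF-positive and 48.5 CPM in FGF-negative cells, and CER1 at 293 and 99.1 CPM. Pluripotency genes went the other way on day 3, with 4 of 6 tested higher and 0 lower in FGF-positive cells, among them POU5F1 at 554 CPM in positive and 374 CPM in negative cells. The amnion-associated genes GATA3 and ISL1 were lower on day 3, at 23.3 CPM against 52.6 CPM and 14.3 CPM against 31.9 CPM in positive against negative cells. Of the 8 tested genes of nascent mesoderm on day 3, 3 were higher (TBX6, MESP2 and MSGN1) and 1 lower, HAND1, at 210.3 CPM in positive and 470.3 CPM in negative cells. Of 4 tested genes of dissociation stress on that day 0 were higher and 2 lower. Among the lower, ATF3 stood at 9.63 CPM in positive and 23.6 CPM in negative cells. On day 2, of 5 tested, 2 were higher and 0 lower, but HSPA1B passed the minimum level through the positive cells only. Of the other 4 on day 2, 1 was higher and 0 lower. The part of these differences in the DUSP6 and SPRY1 ratios was measured only by the strata that follow.

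For this, the thinned cells were placed in exclusive classes by UMIs: the MESP1 class had a MESP1 UMI, the streak class a TBXT or MIXL1 UMI and no MESP1 UMI, the SOX2 class a SOX2 UMI and none of these, and the last class had none of the 4 gate genes. These are ranges of UMI counts and not cell types. On day 2, 55.6% of FGF-positive and 38.7% of FGF-negative cells were in the streak class, 30.0% and 16.8% in the MESP1 class, and 5.97% and 19.7% in the SOX2 class. On day 3, 71.1% of FGF-positive and 62.2% of FGF-negative cells were in the MESP1 class, and 4.49% and 19.6% had none of the gate UMIs. FGF-positive cells thus lay more often in the streak and MESP1 classes, in which DUSP6 is low.

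Within classes, DUSP6 was lower in FGF-positive cells of the MESP1 class on both days, and in the streak class on day 3. Inside the streak class of day 2, DUSP6 stood at 21.5 CPM in 614 FGF-positive cells and 20.6 CPM in 2182 FGF-negative cells, a ratio of 1.04 (0.780 to 1.38). SPRY1 in the same cells had a ratio of 0.9503 (0.724 to 1.23). The day 2 difference of both genes was therefore not seen in this class, but its DUSP6 interval overlaps that of day 3 and no test between days was possible. Inside the MESP1 class of day 2 DUSP6 had a ratio of 0.586 (0.365 to 0.907) on 25 UMIs in positive cells, and SPRY1 one of 0.745 (0.424 to 1.247). In the SOX2 class DUSP6 had 0.269 (0.0867 to 0.634) on 5 UMIs. In the day 2 cells with none of the gate UMIs DUSP6 had 0.919 (0.527 to 1.498) on 17 UMIs in positive cells. SPRY1 had 0.947 (0.497 to 1.65) in the SOX2 class and 1.02 (0.571 to 1.69) in cells with none of the gate UMIs. The SPRY1 interval thus included 1 in every class of day 2. On day 3 the difference stood within both large classes. DUSP6 had 32.7 CPM in FGF-positive and 59.1 CPM in FGF-negative cells of the MESP1 class, a ratio of 0.553 (0.428 to 0.705), and 0.576 (0.355 to 0.889) in the streak class. SPRY1 had 58.9 CPM in FGF-positive and 108 CPM in FGF-negative cells of the MESP1 class, a ratio of 0.543 (0.450 to 0.650), and 0.575 (0.408 to 0.791) in the streak class. Both ratios were about as large as in the whole library.

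Strata of HAND1, added after the marker levels had been seen, gave DUSP6 0.597 (0.455 to 0.771) among day 3 cells with a HAND1 UMI and 0.585 (0.426 to 0.788) among cells without one. SPRY1 gave 0.772 (0.642 to 0.921) and 0.580 (0.433 to 0.764). Among the day 3 cells with none of the TBXT, MIXL1 and MESP1 UMIs the ratio was 1.04 (0.613 to 1.66) for DUSP6. For SPRY1 it was 1.19 (0.713 to 1.88). These ratios rest on 32 positive cells, beside 61.5% of all genes apart, so their intervals still allow a lower level. In the streak class of day 3, SPRY2 had a ratio of 0.509 (0.310 to 0.792) and ETV5 0.516 (0.261 to 0.924), whereas ETV4 stood at 88.7 CPM in FGF-positive and 59.7 CPM in FGF-negative cells, a ratio of 1.49 (1.12 to 1.95). For ETV4 in the MESP1 class the ratio was 0.883 (0.712 to 1.09), an interval that lies wholly below that of the streak class.

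The 3 ligands did not go with SPRY1 alike. On day 2, SPRY1 stood at 12.6 CPM in 509 cells with an FGF4 UMI and 28.9 CPM in cells without one, a ratio of 0.435 (0.296 to 0.619). For FGF17 the ratio was 0.623 (0.393 to 0.941). For FGF8 the direction turned: 34.4 CPM in 442 cells with an FGF8 UMI and 27.2 CPM in cells without one, a ratio of 1.27 (0.987 to 1.60). On day 3 the order was the same, at 0.263 (0.153 to 0.421) for FGF4, 0.609 (0.509 to 0.722) for FGF17 and 0.973 (0.676 to 1.36) for FGF8, the last from 71 positive cells. On both days the FGF4 and FGF8 intervals do not overlap. Ligand classes differed in state too: on day 2 the MESP1 class made up 31.2% of FGF4-positive, 60.8% of FGF17-positive and 11.5% of FGF8-positive cells. The part of these class shares in the SPRY1 ratios was not tested ligand by ligand.

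DUSP6 was below 1 for each ligand. On day 2 its ratio was 0.511 (0.366 to 0.696) for FGF4, 0.553 (0.349 to 0.834) for FGF17 and 0.774 (0.578 to 1.02) for FGF8. On day 3 it was 0.450 (0.347 to 0.575) for FGF17, 0.700 (0.468 to 1.01) for FGF4 and 0.774 (0.458 to 1.23) for FGF8, so the interval excludes 1 for FGF17 alone. These overlapping intervals do not separate the ligands for DUSP6. ETV4 on day 3 was higher in FGF4-positive cells, with 77.8 CPM in positive and 52.9 CPM in negative cells, a ratio of 1.47 (1.08 to 1.95).

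**Figure D3:**
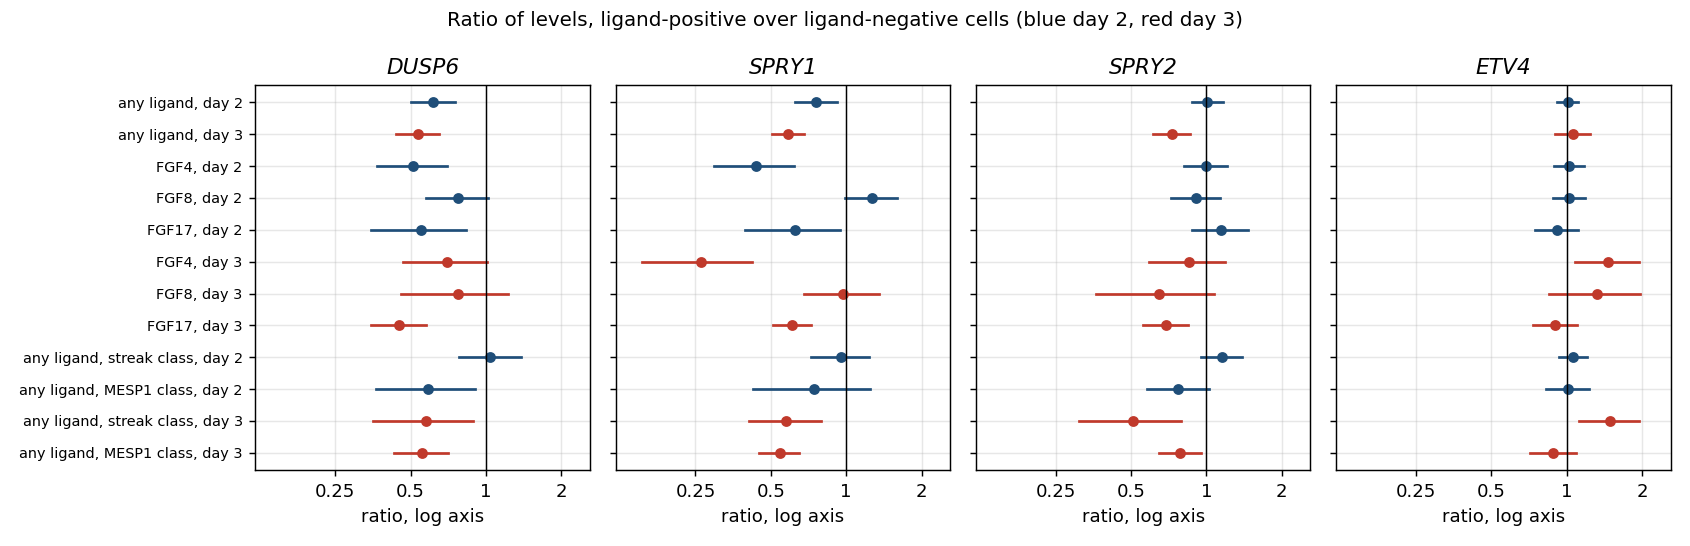
Ratio of levels in ligand-positive over ligand-negative cells (log axis, the vertical line is 1) for DUSP6, SPRY1, SPRY2 and ETV4 on day 2 (blue) and day 3 (red), for any ligand, for each ligand and within the streak and MESP1 classes; bars are 95% intervals of counting error. In the streak class DUSP6 sits at 1.04 on day 2 and 0.576 on day 3, and SPRY1 lies at 0.435 for FGF4 and 1.27 for FGF8 on day 2.

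Levels by class show where each member was high. On day 2, DUSP6 stood at 54.0 CPM (48.3 to 60.3) in the SOX2 class, 39.2 CPM (34.8 to 43.9) in cells with none of the gate UMIs, 23.0 CPM (19.4 to 27.0) in the MESP1 class and 20.8 CPM (18.5 to 23.4) in the streak class. The last pair do not differ beyond their intervals. On day 1 the streak class, 181 cells, was likewise low, with 13.3 CPM (6.85 to 23.2) on 12 UMIs beside 38.3 CPM (34.4 to 42.5) in the SOX2 class. On day 3 the highest level was in the cells with none of the gate UMIs, 109 CPM (101 to 118), followed by 82.1 CPM (52.1 to 123) in the 56 cells of the SOX2 class, whose interval overlaps it. The MESP1 class followed with 56.4 CPM (53.3 to 59.7) and the streak class with 51.1 CPM (45.5 to 57.1). DUSP6 was thus lower in the streak and MESP1 classes than in the cells with none of the gate UMIs on days 2 and 3. The day 3 cells with none of the gate UMIs also had the highest levels of HAND1 (544 CPM), GATA3 (80.4 CPM) and ISL1 (63.1 CPM) of the 4 classes, so low gate counts there go with other lineage markers.

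The lower DUSP6 level of day 2 in all cells was not seen inside the classes. In thinned cells its ratio of day 2 over day 1 was 1.41 (1.21 to 1.65) in the SOX2 class. It was 1.252 (1.05 to 1.49) in cells with none of the gate UMIs and 1.57 (0.885 to 3.07) in the streak class. Over all thinned cells the ratio was 0.914, against 0.816 in the unthinned sums. With the TMM factors of the pooled libraries the class ratios were 1.13, 0.999 and 1.253 in the same order, beside 0.652 in the unthinned sums. The streak class made up 41.5% of cells on day 2, against 5.17% on day 1, and the MESP1 class held 19.0% on day 2. Between day 3 and day 1, the thinned cells with none of the gate UMIs differed by 3.50 (3.01 to 4.08) in DUSP6. The ratio was 1.63 in the unthinned sums of all cells. Over all thinned cells the mean was 0.170 DUSP6 UMIs per cell on day 1 and 0.327 on day 3.

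SPRY1 differed most between days 3 and 2 in the MESP1 class. Cells of the MESP1 class had 14.4 CPM (11.6 to 17.7) on day 2 and 103 CPM (99.1 to 108) on day 3, and the ratio of day 3 over day 2 was 7.18 (5.83 to 8.95). It was the lowest of the 4 classes on day 2, below the streak class at 24.7 CPM (22.2 to 27.5), cells with none of the gate UMIs at 33.5 CPM (29.5 to 38.0) and the SOX2 class at 41.5 CPM (36.4 to 47.0). On day 3 the MESP1 class, the cells with none of the gate UMIs (102 CPM, 93.9 to 110.1) and the streak class (95.3 CPM, 87.7 to 103) had overlapping intervals. The SOX2 class, 64.3 CPM (38.1 to 102) on 18 UMIs, overlapped all 3, so the classes could not be told apart for SPRY1 on day 3.

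**Figure D4:**
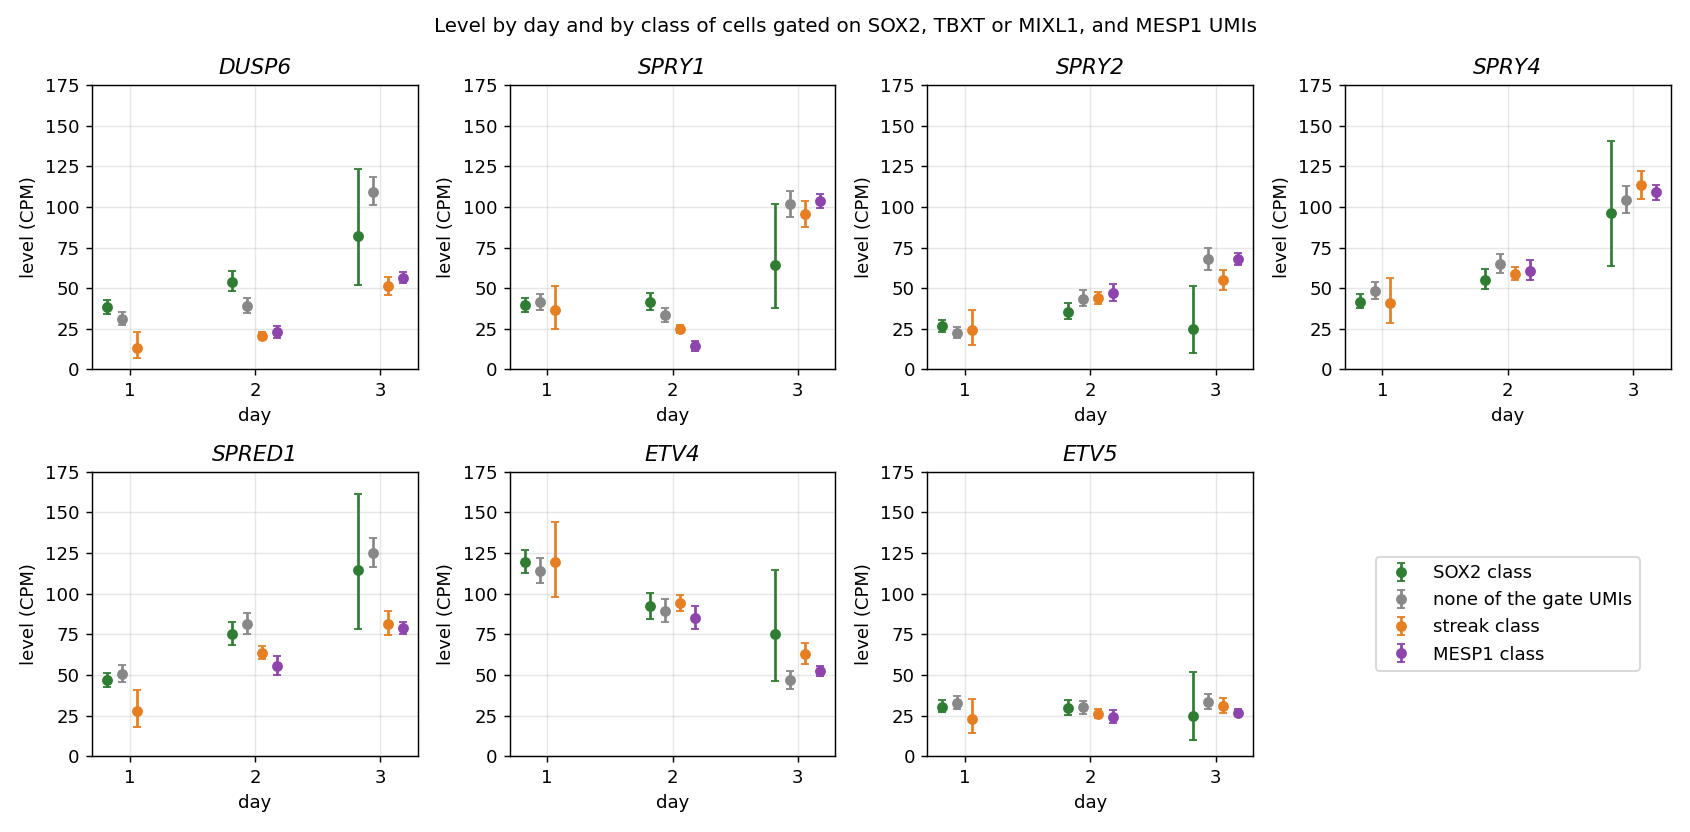
Level of each gene (CPM, cells thinned to 5000 UMIs, linear axis from 0) by day (horizontal axis) in the SOX2 class, cells with none of the gate UMIs, the streak class and the MESP1 class; points are levels and bars 95% Poisson intervals, and the MESP1 class of day 1 (13 cells) is not used. DUSP6 is lowest in the streak and MESP1 classes on days 2 and 3, and SPRY1 in the MESP1 class stands at 103 CPM on day 3, against 14.4 CPM on day 2.

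SPRY2 on day 3 was lowest in the SOX2 class, on 7 UMIs with an interval of 10.1 to 51.5 CPM, and stood at 67.9 CPM (64.5 to 71.6) in the MESP1 class. SPRY4 had 55.2 to 64.8 CPM over the 4 classes on day 2 and 96.4 to 113 CPM on day 3, and its class intervals overlapped on both days. ETV4 had 114 to 119 CPM over the 3 classes of day 1 and 85.0 to 94.2 CPM over the 4 classes of day 2. Its ratio of day 3 over day 2 was below 1 in all 4 classes, at 0.615 (0.555 to 0.683) in the MESP1 class, 0.670 (0.596 to 0.752) in the streak class, 0.522 (0.452 to 0.6003) in cells with none of the gate UMIs and 0.813 (0.499 to 1.26) in the SOX2 class, where the interval includes 1. SPRED1 was higher in the cells with none of the gate UMIs on day 3, 125 CPM (116 to 134), than in the streak class, 81.5 CPM, and the MESP1 class, 78.7 CPM. The SOX2 class of day 3 had 114 CPM (78.2 to 161) of SPRED1 on 32 UMIs, and its interval overlaps that of the cells with none. ETV5 stayed between 23.2 and 33.5 CPM in all 11 groups of day and class. No class known to lack these transcripts was at hand, and the lowest share of cells with a DUSP6 UMI in any class was 6.63%, in the streak class of day 1.

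Inside single cells the members were only weakly tied to each other. Over the 21 pairs on each day, the number of cells with UMIs of both genes was 0.936 to 1.20 times the number expected from the separate shares on day 1, 0.926 to 1.23 times on day 2 and 0.934 to 1.20 times on day 3. Spearman correlations across cells lay between -0.034 and 0.092, and in counts this sparse they are given as a description only. On day 3 the highest ratio of observed to expected cells was that of SPRY1 and SPRY2, in 708 cells where 591 were expected. Relative to genes of like mean, DUSP6 and SPRY1 were spread most on day 3: their Fano factors (variance over mean of UMIs per cell) were 1.42 and 1.44, beside medians of 1.05 and 1.07. ETV4 on day 1 had 1.01, beside a median of 1.08.

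Which markers accompanied a DUSP6 UMI differed from those of SPRY1. The markers named here were chosen after their values were seen, so they do not stand for the lists they come from. On day 3, cells with both DUSP6 and TBXT numbered 0.650 times the expected count (0.565 to 0.744), both DUSP6 and TBX6, a factor of presomitic mesoderm, 0.588 times (0.482 to 0.710) and both DUSP6 and CER1 0.620 times (0.537 to 0.711). Cells with DUSP6 and ISL1 numbered 1.34 times the expected count (1.17 to 1.51), those with DUSP6 and GATA3 1.30 times (1.18 to 1.43), and those with DUSP6 and the stress gene ATF3 between 1.31 and 1.71 times by the interval. For SPRY1 on day 3 the low partners included NODAL at 0.477 (0.391 to 0.576), TFAP2C at 0.396 (0.265 to 0.569) and TFAP2A at 0.457 (0.315 to 0.642). LHX1 at 1.24 (1.18 to 1.29) and PDGFRA at 1.21 (1.13 to 1.30) were above 1. Both are from the list of 8 genes of nascent mesoderm, whose other genes are not given here with SPRY1. SPRY1 with ATF3 stood at 1.01 (0.873 to 1.15). ETV4 went with NODAL at 1.41 (1.22 to 1.61) on day 3, opposite to SPRY1. The part of dissociation stress in the DUSP6 level was not tested.

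The rest of the pathway was followed in lists. A list of 14 other regulators of the pathway held mostly inhibitors, but FLRT3 is not taken as one here. Of the 9 tested, 6 were higher and 0 lower on day 3 than on day 1, beside 31% and 15.1% of all genes. With TMM scaling they were 5 and 1, beside 17.7% and 25.7% of all genes. DUSP7 and FLRT3 reached 10 CPM on day 3 only, so their direction was set by the minimum level, and of the 7 whose mean over both days reached it, 4 were higher and 0 lower. SPRED2, a paralogue of SPRED1, stood at 97.3 CPM on day 3, against 18.5 CPM on day 1, a ratio of 5.25 (5.05 to 5.46). DUSP7, another ERK phosphatase, had a ratio of 5.85 (5.17 to 6.64), DUSP5, which acts in the nucleus, 2.11 (2.02 to 2.20), and FLRT3, a membrane protein that binds FGF receptors, 10.1 (8.64 to 11.9). NF1, the RAS inactivator that SPRED1 recruits, had 2.32 (2.27 to 2.38). IL17RD (Sef) was within the fold at 1.44 (1.40 to 1.49). The median log2 ratio of those 7 genes was 0.72, beside 0.27 for all genes tested.

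Other ERK target genes were mixed. Of the 11 tested of 16, 5 were higher and 3 lower on day 3 than on day 1, and with TMM scaling 4 and 5, beside the same shares of all genes. The ephrin receptor gene EPHA4 had a ratio of 11.9 (11.1 to 12.7) and EPHA2 4.52 (4.26 to 4.80), and IER3 stood at 201 CPM on day 3, against 89.9 CPM on day 1. Lower were IER2, an immediate early gene, 2.64-fold (62.6 CPM on day 3 and 165 CPM on day 1), FOSL1, 5.87-fold (1.95 CPM on day 3, so it passed the minimum through day 1 only), and ETV1, the third PEA3 factor, 1.62-fold. ETV1 was thus lower on day 3 like ETV4, with 21.6 CPM on day 3 and 44.2 CPM on day 2. Of the 7 tested ETS factors outside the members, which include ETV1, 6 were higher and 1 lower on day 3 than on day 1. All genes were 31% higher and 15.1% lower. With TMM scaling the ETS factors split 2 and 1, beside 17.7% and 25.7% of all genes.

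The same lists were read between FGF-positive and FGF-negative cells. Of 11 tested ERK targets on day 2, 2 were higher and 2 lower in positive cells, beside 4.4% and 8.17% of all genes. Of 10 on day 3, 3 were higher and 0 lower, beside 10.8% and 10.9% of all genes. IER3 stood at 246 CPM in FGF-positive and 145 CPM in FGF-negative cells on day 2, a ratio of 1.70 (1.60 to 1.81), and had 1.33 (1.23 to 1.44) on day 3. EPHA4 had ratios of 1.84 (1.62 to 2.09) and 1.63 (1.44 to 1.83), and FLRT3 had 1.98 (1.47 to 2.63) on day 3. IL17RD stood at 89.0 CPM in positive and 59.8 CPM in negative cells on day 3, a ratio of 1.49 (1.30 to 1.69). Of the 8 tested of the other regulators, 1 was higher and 0 lower on day 2 (FLRT3, which passed the minimum level through the positive cells only). On day 3, 2 were higher (FLRT3 and IL17RD) and 1 lower (ERRFI1, an inhibitor of the EGF receptor, 0.573). IER3 and EPHA4 were thus higher in the cells in which DUSP6 was lower, while 2 other ERK targets were lower there on day 2. Whether the IER3 and EPHA4 ratios held inside the classes was not tested.

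Genes with the most similar pattern were ranked by Pearson's r of log2(CPM + 1) over the 11 groups of day and class, which share 3 libraries, among 11565 genes. DUSP6 was most like MID1 (0.953), NXPH2 (0.945) and WDR86 (0.921). SPRY1 was most like ADAMTS7 (0.951), PKDCC (0.949) and TRIB2 (0.942), SPRY2 like LMAN1 (0.981), MYADM (0.977) and PHF20L1 (0.975), and SPRY4 like ZHX3 (0.988), HIST1H3F (0.984) and LINC00922 (0.982). SPRED1 was closest to RAPGEF2 (0.989), LATS2 (0.987) and SAMD3 (0.976), and ETV4 to LINC01405 (0.991), SLC27A5 (0.989) and AP002387.2 (0.987). ETV5, with its small range, reached 0.903 with OSBPL9, 0.860 with ABCB8 and 0.859 with SAMD4A. Some of these genes stayed near the minimum level of 10 CPM. ADAMTS7 spanned 7.82 to 12.7 CPM over the groups, WDR86 2.50 to 11.7 CPM and ABCB8 6.89 to 11.3 CPM. Among the members, DUSP6 and SPRED1 were the most alike (0.890), and ETV4 ran opposite to SPRY4 (-0.938).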

How the data were processed

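Single-cell RNA was measured in 3 libraries of UCLA1 cells, 1 each for days 1, 2 and 3. The UMI counts per gene and cell barcode were deposited by the authors as unnormalised matrices; the submitters' processing notes name Cell Ranger 5.0.1 and hg38. The labels name no batches. Barcodes with under 1000 genes or over 20% mitochondrial UMIs were removed (1212, 2688 and 599 on days 1, 2 and 3). Scrublet, run in scanpy, marked only 3, 1 and 1 cells as doublets with its automatic threshold, so the 144, 668 and 457 cells with the highest scores were removed, at a rate of 0.8% per 1000 barcodes. Counts were summed over cells and divided by total UMIs (CPM). Cells were thinned to 5000 UMIs for shares and classes.

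A gene was counted as apart at 1.5-fold between days, or at least 25% above the other class for FGF-positive and FGF-negative cells, with at least 10 CPM in the higher group; no test across samples exists with 1 library per day. The genes named are the 7 members, genes of the pathway and marker lists, and the 3 most like genes of each member. Members and lists were chosen with earlier results of these data known. The comparisons of day 2 and day 3 with day 1 share the day 1 library, and likewise for the other days. Alternatives were TMM (edgeR 4.0.16) and median-of-ratios (DESeq2 1.42.0) scaling, other filters, thinning seeds, ligand definitions and cell classes; those added after seeing the data were the HAND1 strata and the fits inside single classes. The summing and ratio steps were tested on simulated data. Python packages were numpy 2.4.6, pandas 2.3.3, scipy 1.17.1 and scanpy 1.11.5.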

Additional observations from a re-analysis of the deposited data

Results flagged for a closer look

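The barcodes that the filters removed were used in no comparison, and they held UMIs of the 7 genes: 728 on day 1, 1215 on day 2 and 296 on day 3. The median mitochondrial share of these barcodes was 73.6%, 44.5% and 62.4% on days 1, 2 and 3. Summed over the 7 genes, the level in removed barcodes was 215, 273 and 306 CPM on days 1, 2 and 3, beside 349, 349 and 510.2 CPM in the cells kept. ETV4 stood at 34.6, 48.1 and 8.26 CPM in removed barcodes and SPRED1 at 76.0, 87.4 and 93.0 CPM. By this measure ETV4 was lower there than in the cells kept on each day, and SPRED1 was higher on days 1 and 2. The totals include mitochondrial UMIs, whose median share in the cells kept was 4.41%, 4.00% and 3.56%. The larger share in removed barcodes lowers the CPM of all other genes there. Levels of removed barcodes without mitochondrial UMIs were not computed, so lower values there are not read further.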

How the results depend on the processing

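Of 448 ratios of single members under the alternatives, 319 stayed inside the 95% counting interval of the reported ratio, 125 left it, and 4 had the other direction for a member counted as apart; the cause was not tested. Between day 2 and day 1, 3 members were past the fold under TMM factors, all lower, and 3 under median-of-ratios factors, again all lower, against 1, SPRY2, by total UMIs. For FGF-positive against FGF-negative cells of day 1 the count of 1 became 6 for FGF4 alone (3 higher and 3 lower, on 22 positive cells, beside 65.6% of all genes apart), 3 for FGF8 alone (all lower, 66 cells, beside 46.2%) and 2 between the depth quartiles (1 higher and 1 lower, 55 cells, beside 50.6%). On day 2 the count of 2 became 0 in cells with a TBXT or MIXL1 UMI. On day 3 the count of 3 became 6 with at least 2 ligand UMIs (all lower, 126 cells, beside 44.3% of all genes, 23.1% lower) and 5 without a HAND1 UMI (all lower, 328 cells, beside 25.3%). The 4 turned ratios were DUSP6 on day 1 with a second random thinning (1.09), SPRY1 on day 2 for FGF8 alone (1.27), and DUSP6 (1.04) and SPRY1 (1.19) on day 3 in cells without a TBXT, MIXL1 or MESP1 UMI. Day 1 was not run for at least 2 ligand UMIs (4 cells), FGF17 (1 cell) or TBXT or MIXL1 cells (14 cells). No paired analysis was possible because each day had 1 library. Intervals cover counting error only, and ratios between days hold no estimate of the spread between cultures.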

Other observations

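FGF receptors differed between FGF-positive and FGF-negative cells. FGFR2 was lower in FGF-positive cells, with ratios of 0.685 on day 2 and 0.740 on day 3, and FGFRL1, a receptor without a kinase domain, had 0.719 on day 3. FGFR3 and FGFR4 reached 10 CPM on day 3 through the FGF-positive cells only, so their direction was set by the minimum level. Of the other 3 tested receptor genes on day 3, 0 were higher and 2 lower, beside 10.8% and 10.9% of all genes.

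Levels were also read by the number of ligand UMIs in a thinned cell. On day 2, DUSP6 stood at 33.2, 21.9, 16.9 and 11.5 CPM in the 5637, 840, 213 and 52 cells with 0, 1, 2 and at least 3 ligand UMIs, the last on 3 DUSP6 UMIs. On day 3, SPRY1 stood at 105, 68.1, 40.9 and 30.3 CPM in 6073, 476, 93 and 33 cells, the last on 5 UMIs. The other 2 series did not run in order: SPRY1 on day 2 stood at 28.8, 24.8, 9.39 and 26.9 CPM, and DUSP6 on day 3 at 68.2, 35.7, 36.6 and 48.5 CPM.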
